A study of Mus musculus with 4 samples.

Results

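Platelets are cell fragments shed by megakaryocytes, and they carry RNA from these parent cells, so that whole lung, with its dense capillary bed and its own resident megakaryocytes, holds a small amount of platelet and megakaryocyte RNA. The set examined here holds 10 genes of this lineage out of 17780 in the expression table, and each symbol was matched to 1 row. Ppbp and Pf4 encode chemokines stored in platelet alpha granules, Gp1ba, Gp1bb, Gp5 and Gp9 encode the subunits of the receptor complex for von Willebrand factor, and Itga2b encodes the alpha chain of the fibrinogen receptor. Gp6 encodes the collagen receptor of platelets, Clec1b the receptor for podoplanin, and Treml1 a granule membrane protein of platelets and megakaryocytes. The genes were chosen by measured values, because Ppbp and Gp9 were higher in the lung given both drugs than in the lung given amiodarone alone, so that this difference is described and supports nothing.

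Lung RNA came from young male mice, C57BL/6 in the labels and C57BL/6J in the study's methods, dosed orally on weekdays. The labels give 28 days of treatment, and the methods date the lung collection slightly earlier. There was 1 library for each of 4 groups, which were vehicle (carboxymethylcellulose solution), amiodarone (an anti-arrhythmic drug that can injure the lung), dabigatran (an inhibitor of thrombin, the protease that activates platelets and forms fibrin), and both drugs. No group had a replicate, no p-value was computed, and the sources do not state whether a library came from 1 mouse. Levels are given as FPKM, a read count corrected for transcript length and for library size, and a library held between 17498486 and 18903401 estimated reads. A ratio is followed by its exact Clopper-Pearson 95% interval, which covers the counting error of the 2 libraries compared and not the variation between mice. A difference is said to lie beyond counting error where this interval excludes 1.

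The lung origin of the tissue was plain in all libraries, with Sftpc, the surfactant protein of alveolar type 2 cells, between 19587 and 20385 FPKM. The 10 platelet and megakaryocyte genes were detected in every library, with between 31 and 1018 estimated reads. Per 1000000 reads of a library, the 10 genes together took 125.5 reads in the vehicle library, 81.54 after amiodarone, 136.6 after dabigatran and 188.5 after both drugs. In bulk tissue, fewer platelets or megakaryocytes and less RNA in each of them cannot be told apart.

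The 250 bases before the transcript start of some of the genes are shown because the 10 genes share an expression pattern across libraries, described after the sequences. Promoter windows were found for all 10 genes in RefSeq sequence of GRCm38.p6. The Gp9 window lies wholly inside the annotated span of the gene (87776131 to 87779786). Those of Gp1ba and Gp6 run into their spans, so that for these genes the transcript start used is not the outer end of the span. They were searched on both strands for GATAA, the core bound by GATA factors that direct megakaryocyte and red cell genes. Also searched were CCGGAA, 1 form of ETS factor sites, TGTGGT, bound by RUNX factors, and TGAGTCA, bound by NF-E2 and AP-1. Other forms of these sites were not searched. GATAA was present before Gp1ba, Gp5, Gp9, Gp6 and Clec1b, or 5 of the 10 genes. It was present in 25.5% of the 27025 genes with a window and in 22.6% of all 32851 promoter windows of the same length. CCGGAA (13.6% of genes and 12% of all windows) and TGTGGT (15.9% and 14.0%) were present in 0 and 1 of the 10. TGAGTCA (5.16% and 4.46%) was in 0, and no matches overlapped. A match is a description of letters and not evidence of binding. The windows lie at chr5:90768268-90768517 (plus strand) for Ppbp, chr11:70638872-70639121 (plus) for Gp1ba, chr16:30310782-30311031 (minus) for Gp5, chr6:87777820-87778069 (plus) for Gp9 and chr6:129397047-129397296 (plus) for Clec1b. Each is written 5′ to 3′ on the strand of its gene, with GATAA or its reverse complement TTATC in capitals, and Ppbp is shown as the gene with the highest level of those without a match.
Ppbp: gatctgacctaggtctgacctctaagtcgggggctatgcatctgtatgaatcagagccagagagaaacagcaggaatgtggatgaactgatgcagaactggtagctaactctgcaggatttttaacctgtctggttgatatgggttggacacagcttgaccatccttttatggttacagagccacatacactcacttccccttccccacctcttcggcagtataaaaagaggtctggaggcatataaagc
Gp1ba: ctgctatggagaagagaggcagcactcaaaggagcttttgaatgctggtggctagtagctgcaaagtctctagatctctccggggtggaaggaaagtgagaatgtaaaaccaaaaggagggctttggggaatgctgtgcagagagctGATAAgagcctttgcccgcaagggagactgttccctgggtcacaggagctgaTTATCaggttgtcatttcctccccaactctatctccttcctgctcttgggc
Gp5: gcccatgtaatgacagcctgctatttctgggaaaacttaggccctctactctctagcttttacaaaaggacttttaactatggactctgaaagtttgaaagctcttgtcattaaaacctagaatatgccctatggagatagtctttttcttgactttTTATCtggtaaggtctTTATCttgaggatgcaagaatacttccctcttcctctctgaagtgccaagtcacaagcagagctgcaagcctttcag
Gp9: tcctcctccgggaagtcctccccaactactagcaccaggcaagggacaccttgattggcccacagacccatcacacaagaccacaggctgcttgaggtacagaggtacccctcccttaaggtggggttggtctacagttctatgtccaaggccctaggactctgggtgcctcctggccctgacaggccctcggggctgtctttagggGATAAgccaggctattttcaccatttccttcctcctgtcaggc
Clec1b: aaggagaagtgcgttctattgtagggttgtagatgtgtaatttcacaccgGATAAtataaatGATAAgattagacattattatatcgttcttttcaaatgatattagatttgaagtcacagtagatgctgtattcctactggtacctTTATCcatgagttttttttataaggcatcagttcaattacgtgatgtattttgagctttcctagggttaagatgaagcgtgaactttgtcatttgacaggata

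In Gp1ba the matches began 103 and 51 bases before the start, in Gp5 93 and 77 bases, and in Gp9 43 bases before it. Clec1b held 3 matches, which began 200, 188 and 103 bases before the start. The number of matches did not sort the genes by level, since Gp1ba, with 2, had the lowest FPKM but one with vehicle and Ppbp, with none, the highest.

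All 10 genes had their lowest level in the amiodarone library and their highest in the amiodarone + dabigatran library. Over the 15169 genes with at least 10 reads in 1 of the 4 libraries, 7.89% showed this order. Because the difference between the 2 libraries at its ends prompted the choice of genes, the order supports nothing by itself. Vehicle and dabigatran lay between these ends, with dabigatran above vehicle in 7 genes and below it in Pf4, Gp1bb and Treml1.

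**Figure D1:**
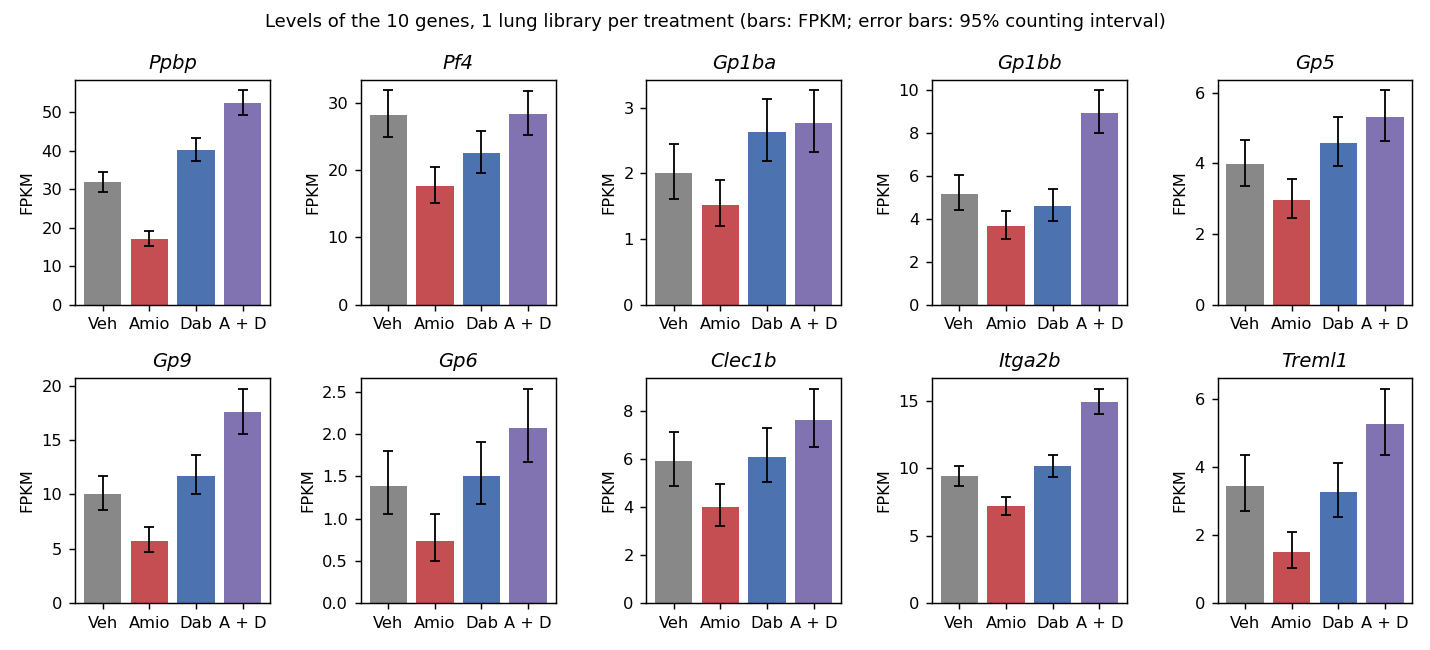
FPKM of the 10 genes in each library (Veh, vehicle; Amio, amiodarone; Dab, dabigatran; A + D, both), with bars from 0 and error bars giving the exact 95% Poisson interval of the reads, for 1 library per bar. The amiodarone bar is the lowest and the A + D bar the highest in every panel, and for Pf4 the A + D bar (28.35 FPKM) is level with vehicle (28.22 FPKM).

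The granule chemokines Ppbp and Pf4 were the most abundant of the set. Ppbp, which encodes the precursor of the neutrophil-attracting chemokine CXCL7, had 31.8 FPKM in the vehicle library, 17.1 after amiodarone, 40.3 after dabigatran and 52.4 after both drugs. The counting intervals of these 4 levels did not overlap. Pf4, or CXCL4, a heparin-binding chemokine that some tissue macrophages also express, had 28.2, 17.7, 22.6 and 28.4 FPKM in the same order. The level of Pf4 with both drugs matched that with vehicle, whereas Ppbp was 1.65 times its vehicle level.

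Ppbp and Pf4 are neighbours on chromosome 5 of GRCm38.p6, at 90768518 to 90770063 and 90772435 to 90773383 on the same strand, with 2371 bases between them. Their ratio within a library does not depend on how libraries are scaled. Ppbp over Pf4 was 1.13 (0.971 to 1.31) with vehicle and 0.966 (0.802 to 1.17) with amiodarone. It was 1.79 (1.53 to 2.09) with dabigatran and 1.85 (1.62 to 2.11) with both drugs. The intervals of the libraries given dabigatran did not overlap those of the libraries without it, so that the 2 chemokine messages did not keep a constant proportion. Of the other CXC chemokines of this family on the list, Cxcl15, which lung epithelium expresses, had between 590 and 635 FPKM, and Cxcl1, Cxcl2, Cxcl3 and Cxcl5 had at most 1.13 FPKM in any library.

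The receptor for von Willebrand factor anchors platelets to injured vessel walls, and its GPIb alpha chain, the product of Gp1ba, also binds thrombin. Gp1ba, on chromosome 11 from 70639102 to 70643986, had 2.0, 1.51, 2.62 and 2.76 FPKM with vehicle, amiodarone, dabigatran and both drugs. Gp1bb, which encodes its partner chain, on chromosome 16 from 18620319 to 18622403, had 5.17, 3.66, 4.59 and 8.96 FPKM. Gp5, on chromosome 16 from 30307685 to 30310781, encodes the subunit that thrombin cleaves and had 3.97, 2.96, 4.57 and 5.30 FPKM. The combination library stood apart from the other 3 for Gp1bb, and for Gp1ba and Gp5 the intervals of neighbouring libraries overlapped. Gp9, on chromosome 6 from 87776131 to 87779786, encodes the subunit needed to bring the complex to the surface and had 10.03, 5.73, 11.7 and 17.5 FPKM. Gp9 was thus the most abundant subunit message in each library, at between 3.79 and 6.35 times Gp1ba within a library. Gp5 over Gp1ba lay between 1.74 and 1.99 in all 4 libraries, with overlapping intervals. Gp1bb over Gp1ba was 3.25 (2.65 to 4.0) with both drugs and 1.75 (1.37 to 2.25) with dabigatran, and lay between these values with vehicle and amiodarone.

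Gp1bb shares 593 bases with Septin5, its neighbour on chromosome 16, and its estimated reads were not whole numbers (163.68 with vehicle), as arises when reads are divided between genes by estimation. Septin5, listed under the symbol Sept5, had 8.16, 5.25, 6.72 and 6.53 FPKM in the same order, so that it was not highest with both drugs. The 2 genes cannot be fully told apart in these counts.

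Gp6 and Clec1b encode the receptors that activate platelets through tyrosine kinase signaling. Gp6, on chromosome 7 from 4362853 to 4397851, was the least abundant of the set, with 1.39, 0.74, 1.51 and 2.07 FPKM from 58, 31, 69 and 91 reads. Clec1b, on chromosome 6 from 129397297 to 129405413, had 5.93, 4.01, 6.10 and 7.64 FPKM. For both genes vehicle and dabigatran were close to each other. The annotated span of Clec12b covers the whole of Clec1b, and Clec12b had 2.87, 3.72, 3.40 and 4.50 FPKM, lowest with vehicle where Clec1b was lowest with amiodarone.

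Itga2b and Treml1 encode membrane proteins of the lineage. Itga2b, which encodes integrin alpha IIb (CD41), on chromosome 11 from 102453297 to 102469883, had 9.41, 7.20, 10.1 and 15.0 FPKM. With 457 to 958 reads it was, beside Ppbp, the gene of the set with the most reads. Treml1, on chromosome 17 from 48359916 to 48367176, encodes a receptor that appears on activated platelets and had 3.44, 1.49, 3.25 and 5.25 FPKM from 71, 33, 68 and 117 reads. Its amiodarone level lay below the intervals of the other 3 libraries.

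Ranked by FPKM in the vehicle library, the order was Ppbp, Pf4, Gp9, Itga2b, Clec1b, Gp1bb, Gp5, Treml1, Gp1ba and Gp6. Of the 9 neighbouring pairs in this order, Ppbp and Pf4, Gp9 and Itga2b, Clec1b and Gp1bb, and Gp5 and Treml1 did not differ beyond counting error.

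Amiodarone alone was compared with vehicle, which asks how the drug's lung differs from the untreated lung. All 10 genes were lower with amiodarone, 9 of them beyond counting error, and 5 (Treml1, Gp6, Ppbp, Gp9 and Pf4) were at least 1.5-fold lower. Among the 15000 genes with at least 10 reads in either library, 28.4% were lower beyond counting error and 9.51% were at least 1.5-fold lower, while 18.1% and 6.58% were higher by these rules. The ratios ran from 0.433 (0.278 to 0.663) for Treml1 to 0.765 (0.675 to 0.867) for Itga2b. Ppbp had a ratio of 0.538 (0.469 to 0.618), and Gp1ba, at 0.755 (0.549 to 1.04), lay within counting error. On the log2(FPKM + 1) scale, which understates differences of low genes, the median difference of the 10 genes was -0.46, against -0.05 for all genes tested. The amiodarone library also took part in the choice of the genes.

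Dabigatran alone differed little from vehicle in these genes. None of the 10 was 1.5-fold higher or lower, where 3.09% of 14960 genes tested were higher and 3.14% lower by that rule. Ppbp was higher beyond counting error, at a ratio of 1.27 (1.14 to 1.42), and Pf4 was lower, at 0.799 (0.664 to 0.961), and these were the only members beyond it, against 14.1% of all genes higher and 12.5% lower. The other 8 ratios lay between 0.888 for Gp1bb and 1.31 for Gp1ba. The intervals of Gp1ba, from 0.993 to 1.73, and of Gp6, from 0.755 to 1.57, reached above 1.5-fold, and that of Itga2b, from 0.959 to 1.21, did not. They cover counting error alone and do not bound the difference between treatments. The median difference was 0.08 on the log2(FPKM + 1) scale, and it was 0.00 over all genes. This comparison shares no library with the one that prompted the choice of genes.

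Amiodarone + dabigatran against amiodarone is the comparison in which Ppbp and Gp9 had been noticed, and its values are given as a description. All 10 genes were higher with both drugs, all beyond counting error and all at least 1.5-fold, where 19.6% of 14952 genes tested were higher beyond counting error and 4.42% at least 1.5-fold higher (14.0% and 3.49% were lower). Among genes with at least 100 reads in either library the 1.5-fold share was 1.53%. Treml1 had the largest ratio, 3.52 (2.38 to 5.35), followed by Ppbp at 3.06 (2.70 to 3.48) and Gp9 at 3.06 (2.43 to 3.87). Pf4 had the smallest, 1.60 (1.32 to 1.94). The genes thus spanned more than counting error, since the intervals of Pf4 and Ppbp did not overlap. The median difference was 0.89 on the log2(FPKM + 1) scale (0.03 over all genes), and without Ppbp and Gp9 it was 0.80.

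Amiodarone + dabigatran was also set against dabigatran alone, which shares the combination library with the choice of genes. All 10 genes were again higher with both drugs, 6 of them beyond counting error and 3 (Gp1bb, Treml1 and Gp9) at least 1.5-fold. Of 14995 genes tested, 18.0% were higher beyond counting error and 5.70% at least 1.5-fold higher, and 22.3% and 6.54% were lower. The largest ratio was that of Gp1bb, 1.95 (1.60 to 2.39), and the smallest that of Gp1ba, 1.05 (0.821 to 1.35). Itga2b had a ratio of 1.47 (1.33 to 1.63). The median difference was 0.34 on the log2(FPKM + 1) scale, against -0.01 over all genes.

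**Figure D2:**
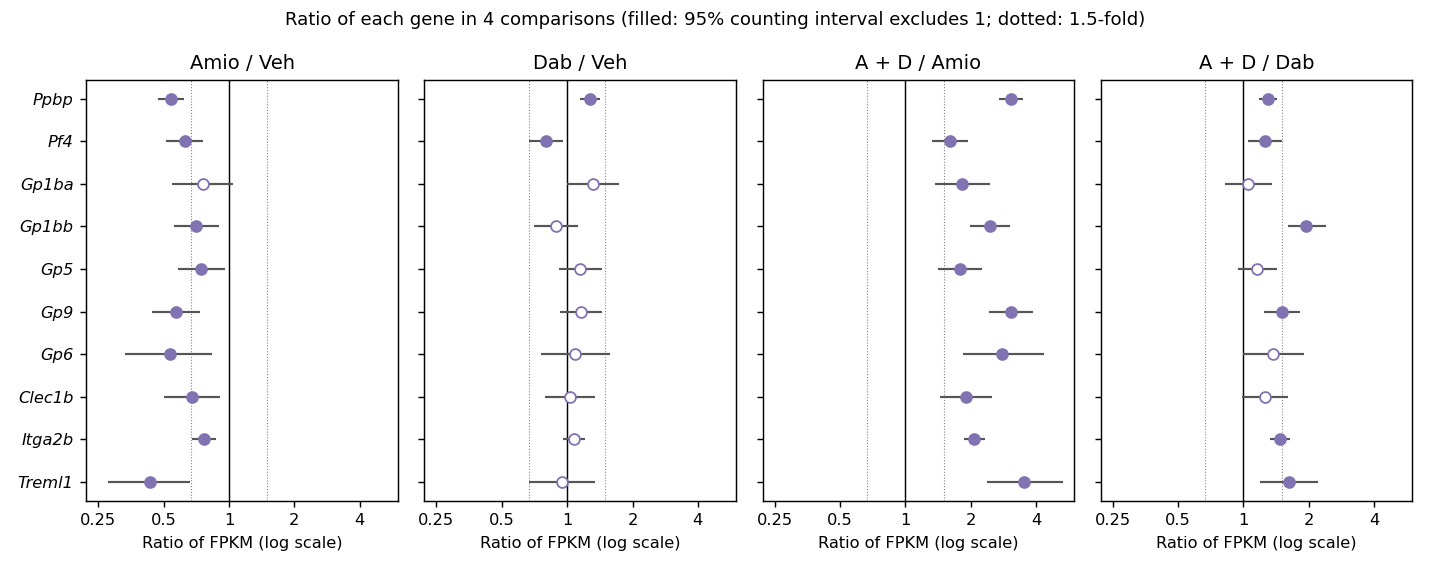
Ratio of FPKM for each gene (points) with its 95% counting interval (lines) on a log axis, in the 4 comparisons, with filled points where the interval excludes 1 and dotted lines at 1.5-fold in either direction. The points lie below 1 for Amio / Veh, around 1 for Dab / Veh, between 1.60 and 3.52 for A + D / Amio, and between 1.05 and 1.95 for A + D / Dab.

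The difference associated with amiodarone therefore had opposite signs without and with dabigatran, in pairs of libraries that share none. Ppbp, Pf4, Gp1bb, Gp9, Itga2b and Treml1, or 6 of the 10, were lower with amiodarone than vehicle and higher with both drugs than with dabigatran, beyond counting error in both, where 1.83% of 14826 genes did so. Each pair holds 1 of the 2 libraries used in choosing the genes, so that this count is tied to the choice. Gp1ba, Gp5, Gp6 and Clec1b went the same ways, but at least 1 of their ratios lay within counting error. For the difference associated with dabigatran, Pf4 alone was lower than vehicle without amiodarone and higher with it, beyond counting error in both, which 3.42% of 14743 genes also were.

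**Figure D3:**
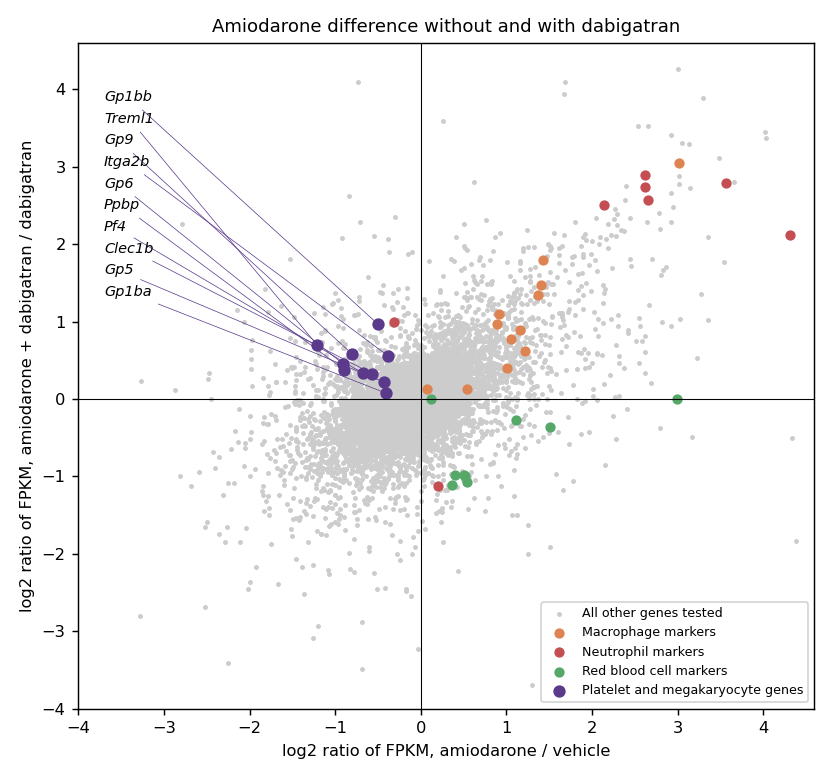
log2 ratio of FPKM for amiodarone over vehicle (horizontal) against amiodarone + dabigatran over dabigatran (vertical) for each gene tested in both, with the 10 platelet and megakaryocyte genes named and 5 other genes beyond the axes. The 10 genes lie in the upper left, macrophage and most neutrophil markers in the upper right, and the most abundant red blood cell markers in the lower right.

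The other platelet genes came from lists of receptors and adhesion partners (16 genes) and of granule, cytoskeleton and signaling proteins (20 genes). With both drugs against amiodarone, 24 of the 35 genes tested were higher and 11 lower, where 57.1% and 42.2% of all genes were. By the 1.5-fold rule 9 were higher and none was lower, beside 4.42% and 3.49% of all genes. With amiodarone against vehicle, 22 of 36 were lower, which is near the share of all genes that were lower, 58.6%. By the 1.5-fold rule 8 of the 36 were lower and 3 higher, beside 9.51% and 6.58% of all genes. Their median ratios were 1.12 and 0.905 in these comparisons. For dabigatran alone the median was 1.05, and for both drugs against dabigatran it was 1.04. Of the 36 genes, Mpig6b, Itgb3, F2rl2, Tubb1, Alox12, F5, Fermt3 and Rab27b shared the order with amiodarone lowest and the combination highest, as did Lyl1 among 12 transcription factors and Sftpc among 7 lung epithelial markers. Over all genes the share with this order was 7.89%.

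Itgb3, the partner chain of Itga2b, had 7.73, 5.88, 9.61 and 10.3 FPKM with vehicle, amiodarone, dabigatran and both drugs, and its ratio of both drugs to amiodarone was 1.74 (1.58 to 1.92). Tubb1, the beta tubulin of the platelet marginal band, had 9.52, 6.95, 12.97 and 16.8 FPKM. These followed the 10 genes in their order of libraries. Alox12, the 12-lipoxygenase of platelets, had 12.2, 7.41, 13.8 and 17.8 FPKM, with a ratio of both drugs to amiodarone of 2.40 (2.09 to 2.75). F5, coagulation factor V, which platelets store, had a ratio of 2.52 (2.09 to 3.06), the largest of these lists among genes with at least 50 reads in 1 library.

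Other genes of these lists had other orders of libraries. Fcer1g, the signaling partner of the collagen receptor and of Fc receptors on myeloid cells, had 95.1, 196, 91.2 and 220 FPKM. Thbs1, the granule protein thrombospondin 1, which many cell types make, had 64.7, 38.6, 77.9 and 26.6 FPKM and was lowest with both drugs. Cd9, the most abundant gene of the lists, had 340, 487, 348 and 485 FPKM and was thus higher in both libraries given amiodarone. Ptgs1, or cyclooxygenase 1, was highest with amiodarone, at 42.6 FPKM, and its ratio of both drugs to amiodarone was 0.689 (0.646 to 0.735).

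**Figure D4:**
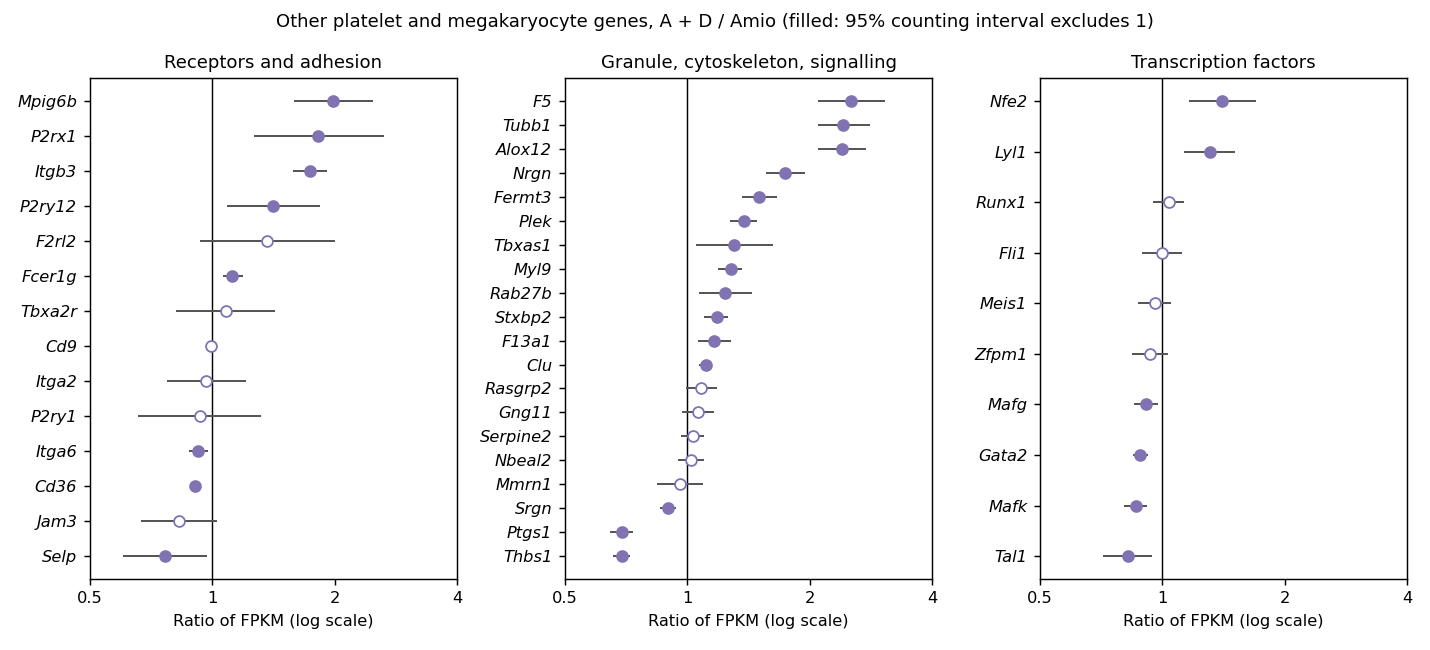
Ratio of FPKM of both drugs over amiodarone, with 95% counting intervals on a log axis, for the other platelet and megakaryocyte genes with at least 50 reads in 1 library, by list. F5, Tubb1 and Alox12 have the largest ratios (2.52, 2.42 and 2.40), and Nfe2 has the largest ratio of the transcription factors (1.40).

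Transcription factors of the megakaryocyte lineage showed no such order as a group. Of 12 genes on the list, 8 of the 11 tested were higher with amiodarone than vehicle, and 5 of 12 were higher with both drugs than with amiodarone. Over all genes tested, 40.9% and 57.1% were higher in these comparisons. None of the 12 was 1.5-fold different in the second comparison, where 4.42% of all genes were higher and 3.49% lower by that rule. Nfe2, which drives late megakaryocyte maturation, had 4.98, 6.55, 5.08 and 9.19 FPKM with vehicle, amiodarone, dabigatran and both drugs. Gata2, which endothelial and mast cells also express, had 42.9, 74.2, 45.8 and 65.5 FPKM. Gata1 and Gfi1b, the most lineage-restricted, were scarce, at no more than 0.91 and 0.32 FPKM, so that their differences were not detectable at this depth.

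Of 12 ligands and partner receptors of the proteins, 5 of the 11 tested were higher and 6 lower with both drugs than with amiodarone, and none had amiodarone lowest and the combination highest. Among all genes, 57.1% were higher and 42.2% lower, and 7.89% had that order, a share near none in a list this short. Vwf, the ligand of the GPIb complex made by endothelium and megakaryocytes, had 62.4, 86.0, 83.5 and 65.9 FPKM, and its ratio of both drugs to amiodarone was 0.767 (0.748 to 0.786). Pdpn, or podoplanin, the ligand of Clec1b and a marker of alveolar type 1 cells, had 94.7, 119, 104 and 121 FPKM. The collagen genes Col3a1, Col1a1 and Col1a2, whose products Gp6 can bind, were lower with amiodarone than vehicle, at ratios of 0.499, 0.772 and 0.717. With both drugs they were higher than with amiodarone, at 1.26, 1.09 and 1.06, all beyond counting error, and lower than with dabigatran, at 0.495, 0.682 and 0.619. The fibrinogen chains Fga and Fgg, ligands of the Itga2b integrin, were scarce, at no more than 0.62 and 1.68 FPKM, and were highest with amiodarone. Cxcr2, the neutrophil receptor through which CXCL7 acts, had 2.62, 12.8, 2.33 and 10.02 FPKM and so was higher in both libraries given amiodarone, whether Ppbp was low or high.

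By a root mean square difference of log2 levels over the 4 libraries, among 11541 genes with at least 100 reads in each, the genes most like Ppbp were Gp9 (0.086), Alox12 (0.144), Tubb1 (0.167), F5 (0.188) and Lrat (0.196). Those most like Itga2b were Cacna2d4 (0.065), Mfsd2b (0.076), Mpig6b (0.085), Fcrls (0.089) and F5 (0.109). Within the set, Gp6 (0.093) and Treml1 (0.166) were closest to Ppbp after Gp9, and Pf4 (0.408) was the farthest. Each likeness rests on 4 values and shares the scaling and depth of the libraries.

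Other blood cells moved in other directions in the same libraries. Of 10 red blood cell markers, all 10 had a higher level after amiodarone than in the vehicle library, 9 of them beyond counting error. In that comparison 18.1% of all genes tested were higher beyond counting error. Ahsp, also on this list, was not matched to a row. Where 3.49% of all genes tested were at least 1.5-fold lower with both drugs than with amiodarone, all 10 markers were. Their summed level was 15792 FPKM in the vehicle library, 21423 after amiodarone, 17545 after dabigatran and 8531 after both drugs, so that the ends of their order were opposite to those of the platelet genes. Hbb-bs, the adult beta globin, had a ratio of both drugs to amiodarone of 0.382 (0.377 to 0.388), and Alas2, which makes heme in red cell precursors, one of 0.417 (0.386 to 0.449). No red blood cell marker was listed at 0 in any library.

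Each of 12 macrophage markers had a higher level after amiodarone than in the vehicle library, beside 40.9% of all genes tested. Each was also higher after both drugs than after dabigatran, beside 46.5% of all genes tested. Their summed level was 385.7, 1333, 420.6 and 1458 FPKM with vehicle, amiodarone, dabigatran and both drugs. Chil3 made up most of it in both libraries given amiodarone. Without Chil3, a choice made after seeing the data, the sums were 295.4, 601.6, 307.2 and 517.4 FPKM, so that the combination was then below amiodarone. In that sum Lyve1 had 209 FPKM with amiodarone and 136 with both drugs. By gene, 7 of the 12 markers were higher and 5 lower with both drugs than with amiodarone, 6 and 5 of them beyond counting error. Over all genes tested, 19.6% were higher and 14.0% lower beyond counting error. The summed level of the 11 neutrophil markers was 114.4, 612.8, 100.5 and 438.0 FPKM, with Elane listed at 0 in every library but vehicle and Mpo listed at 0 with vehicle. Endothelial markers summed to between 1231 and 1499 FPKM, and lung epithelial markers to between 102056 (amiodarone) and 151766 FPKM (vehicle). Most of the epithelial sum was Scgb1a1, the club cell secretory protein, and the other 6 markers summed to between 27097 and 29041 FPKM. Mast cell and basophil markers summed to between 35.9 and 44.8 FPKM, of which Kit made up most. The part that these cells or the blood left in the lung had in the levels of the platelet genes was not tested.

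**Figure D5:**
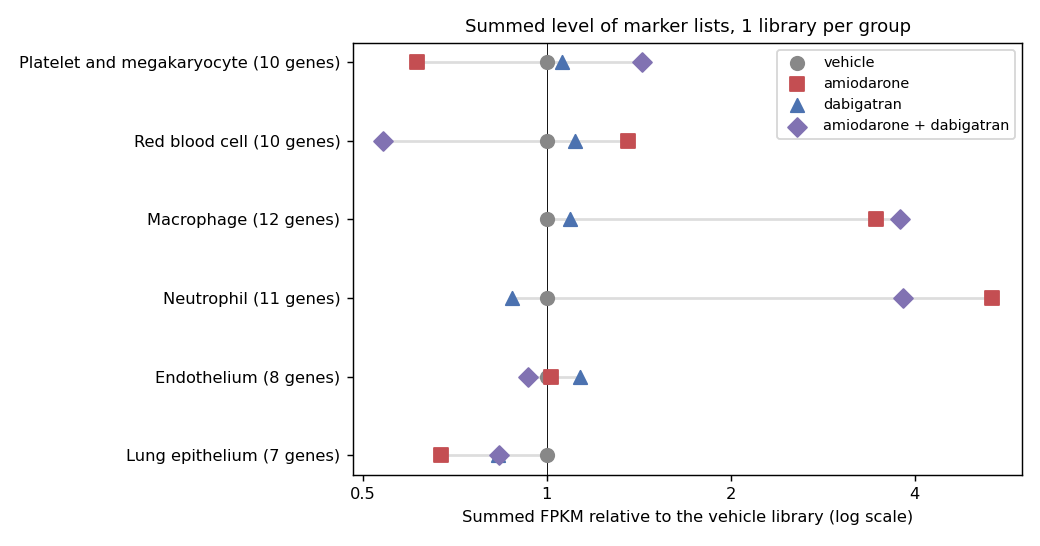
Summed FPKM of the markers of each cell type relative to the vehicle library, on a log axis, with 1 symbol per library. The 10 platelet and megakaryocyte genes stand at 0.613 with amiodarone and 1.43 with both drugs, and the red blood cell markers at 1.36 and 0.540.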

How the data were processed

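Poly(A)+ RNA from mouse lung was sequenced on DNBseq, with 1 library per group. The authors mapped reads to GRCm38.p6 with HISAT and to reference genes with Bowtie2, and estimated expression with RSEM. The deposited table gives FPKM values and estimated counts per gene. The FPKM unit was inferred, since reads per unit of value in the amiodarone and vehicle libraries differ by a factor of 1.070, as do total reads. Another 8 columns, means of 2 libraries made by the authors, were not used.

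Libraries were grouped by their labels. Ratios were taken from FPKM, and exact Clopper-Pearson 95% intervals from rounded reads with SciPy 1.17.1, rescaled to FPKM. Intervals cover counting error only, as fragments are not independent molecules, and a count of 0 allows up to 3 reads. Genes with at least 10 reads in 1 of the libraries compared were tested, at 1.5-fold, and a pseudocount of 1 was used for log2 differences. The procedure was tested on simulated data. Strandedness of the libraries is not given in the sources used here. Positions and promoters came from RefSeq for GRCm38.p6, to which 99.4% of gene identifiers matched. RefSeq now names Sept5 Septin5.

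The members, the gene lists and the comparisons were chosen with earlier results of these data known. All members are named. For the lists the rule was to name the genes of highest level and up to 5 with the largest ratios. Those ratios were to come from genes with at least 50 reads in 1 library. This rule was followed only in part, and no endothelial marker, for example, is named. One gene of the receptor list is not reported here. Any gene other than the members was named after its values were seen. Alternatives were 2 other scalings, other folds, a pseudocount of 0.1, other read filters, and the list without Ppbp and Gp9.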

Additional observations from a re-analysis of the deposited data

Results flagged for a closer look

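The difference between libraries with and without amiodarone had opposite directions in the absence and presence of dabigatran for Ppbp, Pf4, Gp1bb, Gp9, Itga2b and Treml1, beyond counting error each time. The ratio of both drugs to dabigatran, divided by the ratio of amiodarone to vehicle, was 2.41 for Ppbp, 2.0 for Pf4, 2.76 for Gp1bb, 2.63 for Gp9, 1.93 for Itga2b and 3.73 for Treml1. For Pf4 the difference with dabigatran also had opposite directions without and with amiodarone, and the same quotient of 2.0 describes it. The quotient contains the ratio of both drugs to amiodarone, which prompted the choice of genes, so that it supports nothing by itself. Of 14826 genes tested, 1.83% had the first pair of opposite directions beyond counting error. Of 14743 genes, 3.42% had the second, as for Pf4. With 1 library per group, these differences between ratios were not tested.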

How the results depend on the processing

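When levels were rescaled to the median gene, or reads were divided by library totals, the numbers of members higher and of members past 1.5-fold were as in the deposited scaling in all 4 comparisons, and all 80 member ratios stayed within their counting intervals. With a threshold of 25% above the lower of the 2 values, 10 members were past the threshold for amiodarone against vehicle, 3 for dabigatran against vehicle and 8 for both drugs against dabigatran. At 2-fold, 1 was past it for amiodarone against vehicle, 6 for both drugs against amiodarone and 0 for both drugs against dabigatran. The shares of all genes past the 25% and 2-fold thresholds were not computed, so that these member counts have no background beside them. The share of all genes past 1.5-fold in either direction depended on the read filter, since genes with few reads pass more easily. Without a filter 4193, 2652, 2912 and 3618 genes passed it (amiodarone against vehicle, dabigatran against vehicle, both drugs against amiodarone, both drugs against dabigatran), with at least 10 reads 2413, 932, 1183 and 1835, and with at least 100 reads 1248, 148, 357 and 840. RSEM weighs transcripts, and reads per FPKM for Gp9 and Gp6 differed between libraries by up to 1.163 and 1.151 times beyond total reads. From reads alone the ratio of both drugs to amiodarone was 2.67 for Gp9 and 2.91 for Gp6. No paired analysis was possible because each group has 1 library. Depth limits Gp6 and Treml1 most, with 31 and 33 reads in the amiodarone library.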
